A study of Homo sapiens with 14 samples.

Results

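Collagen genes were taken as the protein-coding genes whose symbols consist of COL, a type number, A and a chain number, matched by Ensembl identifier to GENCODE release 44 on GRCh38. The rule found 44 genes among the 60683 gene identifiers of the count tables. They were grouped as 11 fibrillar collagens, 6 type IV collagens and 27 other collagens. The 27 others are the type VI chains of beaded filaments, COL7A1 of the anchoring fibrils, the short-chain network formers, the fibril-associated collagens with interrupted triple helices (FACITs), the transmembrane collagens, the multiplexins and 2 genes assigned to no class. The rule used no expression value, but the members were chosen with earlier results of these data known.

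Collagens are secreted proteins in which 3 alpha chains wind into a triple helix. A helix may hold copies of 1 chain or a mixture of different chains, so a tissue can make a given collagen only if it transcribes the genes of the chains it needs. Fibrillar collagens line up into the fibrils that give connective tissue its strength, whereas type IV collagen forms the sheet-like network of basement membranes on which epithelial cells rest. Fibroblasts are the best known producers of the fibrillar and type VI collagens, and epithelial cells are known for type IV, VII, XVII and XVIII.

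The groups were as follows. A549, an established lung cancer cell line, was left untreated or was given palbociclib (an inhibitor of CDK4 and CDK6) at 2 µM for 10 days, indisulam (a compound that directs the splicing factor RBM39 to degradation) at 0.5 µM for 10 days, both drugs at these doses for 10 days, or PF-06873600 (which blocks CDK2 besides CDK4 and CDK6) at 0.5 µM for 7 days. SUM159, an established triple-negative breast cancer cell line, was left untreated or was given PF-06873600 at 0.5 µM for 7 days. The labels give no collection day for the untreated cells. A549 was grown in RPMI and SUM159 in DMEM/F12 with insulin and hydrocortisone, so line and medium cannot be told apart. Each of the 7 groups had 2 libraries, R1 and R2, described by the submitters as technical duplicates. The p-values below therefore measure the spread between such libraries and not that between separate cultures.

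Polyadenylated RNA was sequenced from bulk cultures, with 13060374 to 21149256 reads counted on genes per library. Levels are given as CPM, the counts scaled to a common total of those reads, and 3 counts in a library correspond to 0.142 to 0.23 CPM. In bulk RNA, fewer cells of a kind and less RNA per cell cannot be told apart. The epithelial markers KRT8, KRT18, EPCAM and CDH1 were all detected in A549, while CDH1 had at most 3 counts in untreated SUM159 (0.181 and 0 CPM). Of the receptor genes PGR, ESR1 and ERBB2, for which triple-negative cancers are negative, PGR had no read in SUM159 and ESR1 lay between 0.0626 and 0.662 CPM, while the 3 together summed to 118 to 131 CPM, nearly all of it ERBB2. The fibroblast markers PDGFRA, PDGFRB, LUM, DCN, THY1 and FAP summed to 0.204 and 0.267 CPM in untreated A549, with THY1 and FAP at 0, and none of the 6 was above 3 counts in a library. They summed to 15.1 and 15.5 CPM in the combination group of A549, to 209 and 217 CPM in untreated SUM159 and to 1318 and 1358 CPM in treated SUM159. In each of those groups all 6 were above 3 counts in at least 1 library. In the A549 combination group LUM and THY1 held most of the sum (means 8.94 and 4.87 CPM). PDGFRA, PDGFRB, DCN and FAP had at most 8 counts in a library there. LUM and DCN are also extracellular matrix genes. The 4 epithelial markers summed to 4469 to 5174 CPM in untreated A549 and 9419 to 9856 CPM with the combination, and to 699 to 754 and 428 to 446 CPM in untreated and treated SUM159. KRT8 and KRT18 held nearly all of these reads. With the combination in A549 the means of KRT8 (2126 to 5004 CPM) and KRT18 (2521 to 4491 CPM) were higher. EPCAM (18.3 and 20.6 to 15.1 and 13.9 CPM) and CDH1 (160 and 152 to 130 and 126 CPM) were lower there. The mesenchymal markers VIM, ZEB1, CD44 and AXL, all detected in every group, summed to 1355 to 1387 CPM in untreated A549, 3204 to 3216 CPM with the combination, 5589 to 6015 CPM in untreated SUM159 and 5340 to 5368 CPM in treated SUM159. VIM held most of the SUM159 sum, and the markers moved in different directions there. With PF-06873600 the means of VIM (4162 to 3609 CPM) and AXL (643 to 344 CPM) were lower. Those of CD44 (930 to 1318 CPM) and ZEB1 (66.8 to 82.5 CPM) were higher. The 4 endothelial markers summed to 0.708 to 1.87 CPM over A549 and 11.2 to 29.5 CPM over SUM159, and the 4 leukocyte markers to 4.40 to 12 and 10.3 to 23.7 CPM. The part of these markers in the collagen results was not tested.

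The 6 type IV genes lie in 3 pairs, each on opposite strands with the starts facing away from each other across a short stretch of DNA. The RefSeq starts of COL4A1 and COL4A2 are 127 bases apart on chromosome 13, and those of COL4A3 and COL4A4 are 419 bases apart on chromosome 2. On chromosome X the start of COL4A5 is 380 bases from the nearer listed start of COL4A6. Another listed start of COL4A6, at position 108438422, lies farther from COL4A5. The stretches are shown here because the members of a pair are compared below. The first line is the whole interval between the starts of COL4A1 and COL4A2 (chr13:110307158-110307283, plus strand). The second is the 250 bases before the start of COL4A3 (chr2:227164374-227164623, plus strand), and the third is the 250 bases before the start of COL4A5 (chrX:108439588-108439837, plus strand). All are from RefSeq on GRCh38.p14, and capitals mark the letters CCAAT or GGGCGG read on either strand.
COL4A1-COL4A2: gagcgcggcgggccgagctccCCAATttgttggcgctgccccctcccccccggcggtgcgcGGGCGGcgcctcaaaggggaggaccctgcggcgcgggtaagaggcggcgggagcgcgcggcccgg
COL4A3: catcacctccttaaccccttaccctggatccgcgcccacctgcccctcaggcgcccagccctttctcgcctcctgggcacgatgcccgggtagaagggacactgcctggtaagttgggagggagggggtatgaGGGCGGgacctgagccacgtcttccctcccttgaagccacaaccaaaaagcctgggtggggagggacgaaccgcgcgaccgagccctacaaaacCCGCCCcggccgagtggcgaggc
COL4A5: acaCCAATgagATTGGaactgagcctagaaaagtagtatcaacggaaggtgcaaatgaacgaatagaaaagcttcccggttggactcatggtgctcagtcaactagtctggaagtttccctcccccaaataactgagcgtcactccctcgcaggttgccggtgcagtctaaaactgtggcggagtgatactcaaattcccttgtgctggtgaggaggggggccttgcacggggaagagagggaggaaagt

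The COL4A1-COL4A2 interval was 80.2% G and C and held 1 CCAAT and 1 GGGCGG. The COL4A3 stretch was 66.4% G and C with 2 GGGCGG and no CCAAT, and the COL4A5 stretch was 51.2% G and C with 2 CCAAT and no GGGCGG. Windows from 250 bases before to 50 bases after a start were given for 32 of the 44 collagen genes, 44 windows in all. CCAAT stood in 31.8% of these windows and in 34.6% of all 35116 windows of the genome. GGGCGG stood in 54.5% of the collagen windows and 45.0% of all, TATAAA in 18.2% and 11.5%, and TGANTCA in 2.27% and 7.71%. These matches are letters only.

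**Figure D1:**
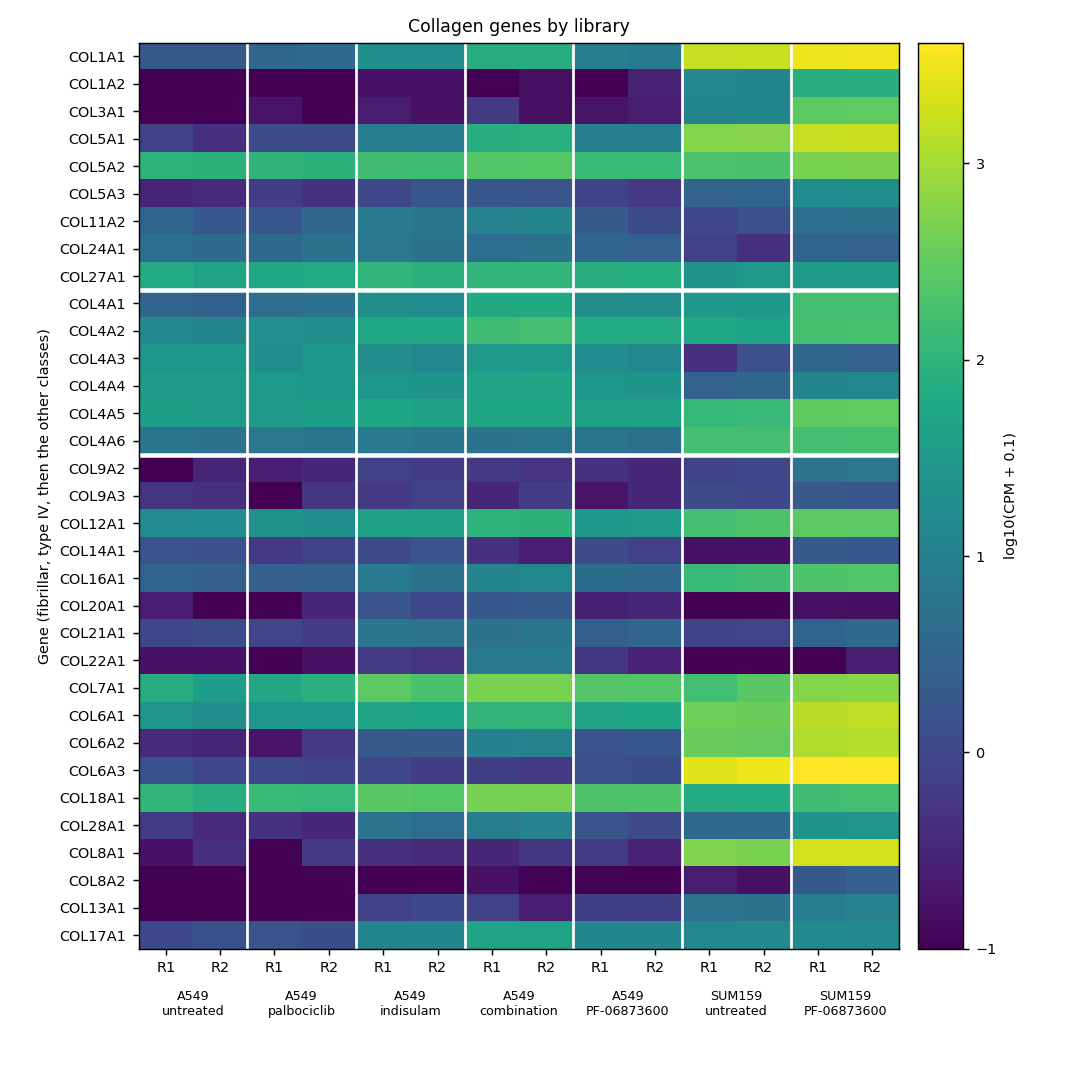
Level of the 33 collagen genes named by rule in each of the 14 libraries, as log10(CPM + 0.1), with genes in rows (fibrillar, type IV, other, divided by white lines) and libraries in columns. COL1A2, COL3A1 and COL8A1 are near the bottom of the scale in every A549 library and COL6A3 is at most 1.36 CPM there, all 4 being far higher in SUM159, while COL5A2, COL7A1 and COL18A1 are well expressed in both lines.

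Collagen reads made up a small and growing part of the A549 libraries. All 44 genes together summed to 530 and 426 CPM in untreated A549, to 522 and 565 CPM with palbociclib, to 1184 and 1019 CPM with indisulam, to 2134 and 2178 CPM with the combination and to 970 and 953 CPM with PF-06873600. The ratio of group means to untreated was 1.14 with palbociclib, 2.30 with indisulam, 4.51 with the combination and 2.01 with PF-06873600. The 2 palbociclib libraries overlapped the range of the untreated ones, and the other treated groups lay above it. In SUM159 the sum was 7212 and 8047 CPM untreated and 16262 and 17052 CPM with PF-06873600, a ratio of 2.18. No test was made on the sums, since an exact permutation test of 2 libraries against 2 cannot give a two-sided p below 0.33.

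The 3 classes did not contribute alike. In A549 the fibrillar genes summed to a mean of 163 CPM untreated and 530 CPM with the combination, a ratio of 3.25, and COL5A2 alone held 57.8% and 46.4% of these reads. The type IV sum went from 120 to 362 CPM (ratio 3.01). COL4A5 and COL4A4 held the largest parts of it untreated (30.1% and 29.0%), and COL4A2 and COL4A1 with the combination (44.9% and 17.6%). The sum of the other collagens went from 194 to 1264 CPM (ratio 6.5), where COL7A1 and COL18A1 together held most of the reads. Palbociclib alone gave ratios of 1.04 for fibrillar, 0.999 for type IV and 1.30 for other collagens. In SUM159 PF-06873600 gave ratios close to each other, 2.33 for fibrillar, 2.18 for type IV and 2.11 for the other collagens. COL1A1 held 66.2% of the fibrillar reads untreated and 55.1% treated, and COL6A3 60.6% and 40.4% of those of the others. Within the others the ratios were uneven, such as 3.93 for the short-chain network formers, 1.86 for type VI and 1.28 for the transmembrane collagens.

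**Figure D2:**
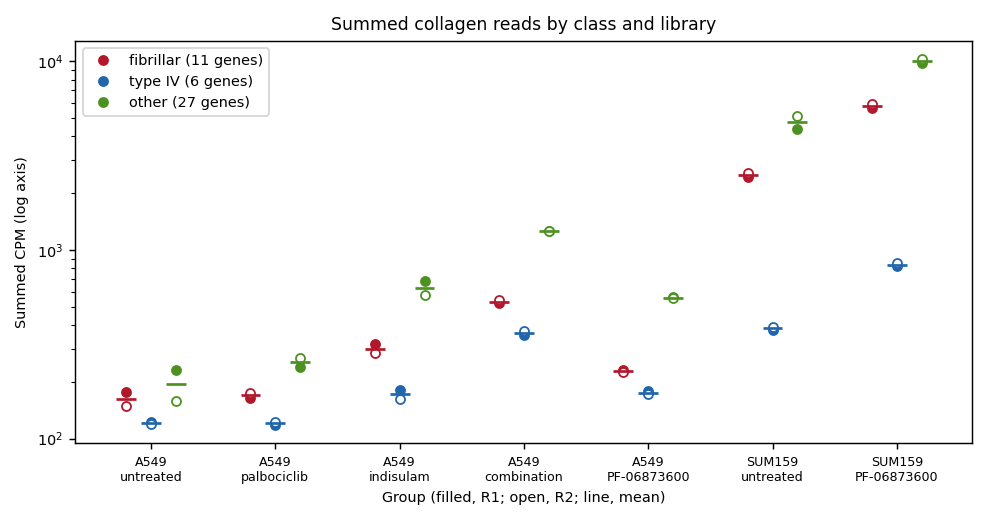
Summed CPM (log axis) of the fibrillar, type IV and other collagens in each library; filled points are R1, open points R2 and lines the mean of the 2 libraries. The combination group is the highest of the A549 groups in each class, and untreated SUM159 lies above it in each class, with means of 2490 against 530 CPM for fibrillar, 384 against 362 CPM for type IV and 4756 against 1264 CPM for other collagens.

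Per kilobase of exon, which brings levels of different genes closer to a common scale, the order of the chains differed between the lines. The length used was the union of all annotated exons of a gene and not that of the transcript present. The order of genes within a line is therefore approximate. In untreated A549 the highest were COL5A2 (12.9 CPM per kb), COL18A1 (10.9), COL7A1 (4.90), COL27A1 (4.23) and COL6A1 (4.0). COL18A1 (55.8), COL7A1 (44.1) and COL5A2 (33.6) led in the combination group. In untreated SUM159 the order was COL1A1 (183 CPM per kb), COL6A3 (134), COL6A1 (69.3), COL6A2 (63.3) and COL8A1 (53.9). COL1A1 remained first after PF-06873600 (355), followed by COL6A1 (257), COL6A2 (228) and COL8A1 (212).

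Genes were tested one by one with edgeR's quasi-likelihood test over all genes that passed a filter on low counts, and a gene is called here when its Benjamini-Hochberg adjusted p is under 0.05. In A549, 27 of the 44 collagens passed the filter, in SUM159 32, and in the fit of both lines 33. A low gene can pass the filter through the group in which it is high, so the counts below describe the genes tested and not the whole family. For such a gene a call of that group as higher is not separate from the filter. Palbociclib alone gave the fewest collagen calls of the A549 treatments, 6 higher (22.2%) and 0 lower of 27. Of all 15780 genes tested, 8.3% were called higher and 7.4% lower. Of the collagens, 2 were lower at an unadjusted p under 0.05 and DESeq2 called 0 lower. With indisulam 21 of 27 were called higher and 2 lower, against 28% and 17.5% of all genes. With the combination 22 were called higher and 1 lower, against 35.1% and 30% of all genes (65.2% in either direction). PF-06873600 gave 16 higher and 3 lower in A549 (28.5% and 27.8% of all genes, 56.3% in either direction), and 30 higher and 0 lower of 32 in SUM159 (38.1% and 35.6% of the 15055 genes tested there). In SUM159 no collagen was lower at an unadjusted p under 0.05, and DESeq2 called 0 lower.

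The median log2 fold change of the collagens tested was 0.15 with palbociclib, 1.57 with indisulam, 2.48 with the combination and 1.22 with PF-06873600 in A549, and 1.87 with PF-06873600 in SUM159. COL13A1 had no read in untreated A549, and with this gene set against a floor of 3 counts per library the combination median was 2.36, the others being unchanged. The medians over all genes tested lay between -0.01 and 0.08 in these comparisons. By class, the median with the combination was 2.32 for 7 fibrillar, 0.48 for 6 type IV and 2.87 for 14 other collagens (2.53 with COL13A1 at the floor). With PF-06873600 in SUM159 it was 2.19 for 9 fibrillar, 1.87 for 6 type IV and 1.85 for 17 others.

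**Figure D3:**
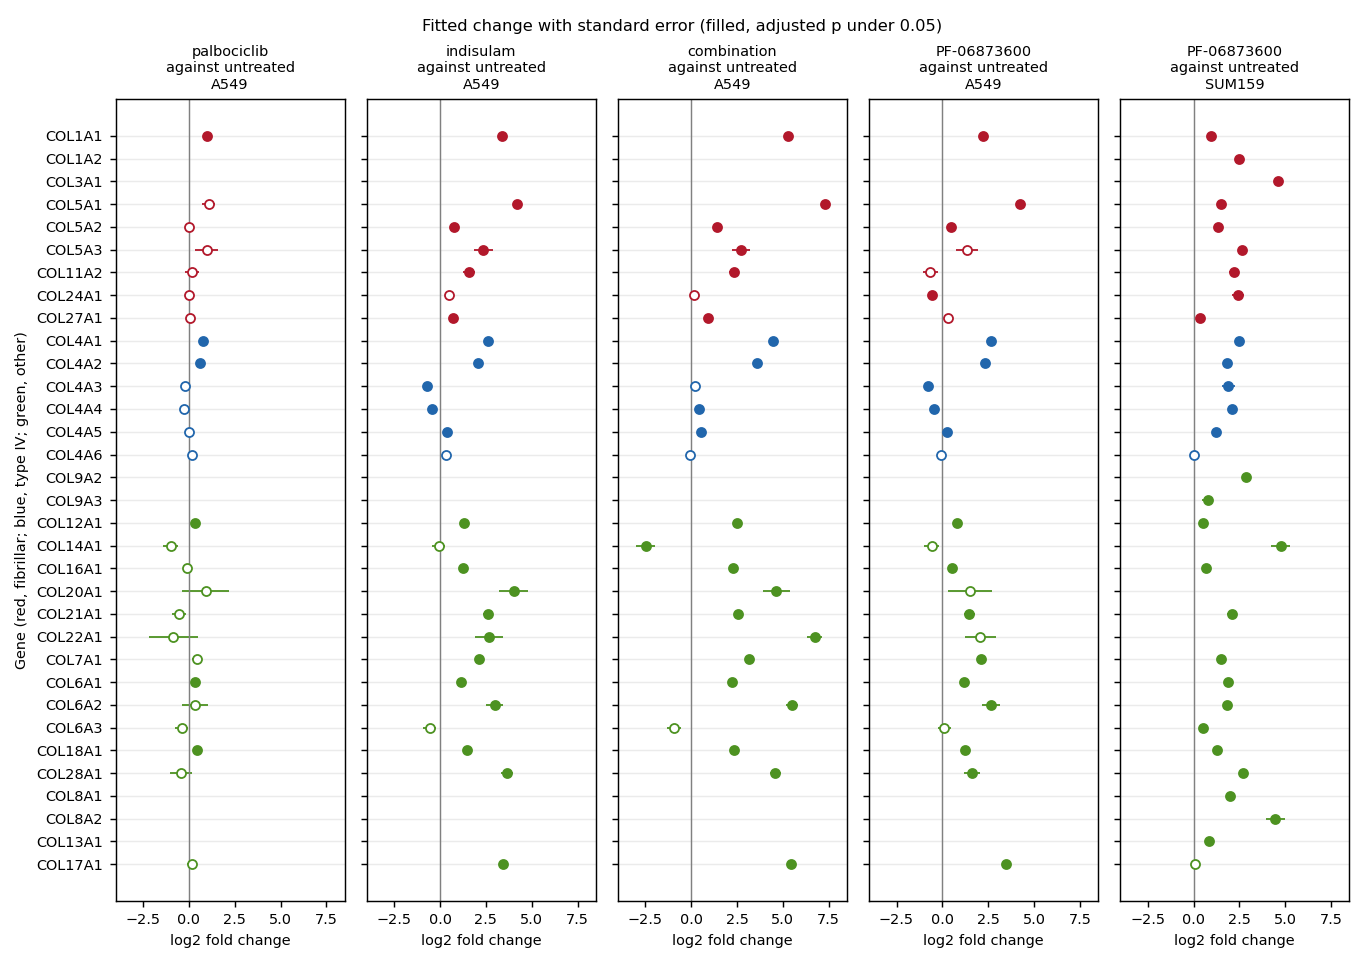
Fitted log2 fold change against untreated cells of the same line for the named collagens, with standard error bars; filled points passed the adjusted p of 0.05, open points did not, and genes without a point were not tested or had no read in one group. Most points with the combination lie to the right of zero, with COL5A1 at 7.31 the farthest and COL14A1 at -2.47 to the left.

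COL1A1 encodes the chain present in double dose in type I collagen, the main collagen of bone, skin and tendon. Its level was 1.90 and 1.93 CPM in untreated A549, 3.49 and 4.09 with palbociclib, 20.5 and 19.6 with indisulam, 73.7 and 73.5 with the combination and 9.72 and 8.10 with PF-06873600. All treated libraries lay above both untreated ones, and the combination lay above every other A549 library. The log2 fold change against untreated was 0.99 ± 0.20 (SE, adjusted p = 0.0032) with palbociclib, 3.38 ± 0.15 (adjusted p = 3.4e-10) with indisulam, 5.26 ± 0.13 (adjusted p = 1.4e-13) with the combination and 2.2 ± 0.17 (adjusted p = 4.8e-08) with PF-06873600. The palbociclib call was lost without palbociclib R2. COL1A2, the gene of the other chain of type I collagen, did not follow. It had no read in untreated or palbociclib-treated A549 and at most 0.185 CPM in any A549 library, which is within 3 counts, so no level could be told from 0 there. In SUM159 COL1A1 stood at 1599 and 1700 CPM untreated and at 3133 and 3257 CPM with PF-06873600, a log2 change of 0.95 ± 0.08 (adjusted p = 3.4e-08). COL1A2 went from 14.2 and 13 CPM to 74.5 and 78.1 CPM, a log2 change of 2.49 ± 0.08 (adjusted p = 1.0e-12). Per kilobase of exon, the mean levels in untreated SUM159 were 183 CPM for COL1A1 and 1.26 CPM for COL1A2, and in treated SUM159 355 and 7.06 CPM.

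COL3A1, the single chain of type III collagen of skin and vessel walls, was at or below 0.496 CPM in every A549 library. In SUM159 it went from 11.8 and 12.6 CPM to 289 and 307 CPM with PF-06873600, with a log2 change of 4.61 ± 0.07 (adjusted p = 1.3e-15), and the groups did not overlap.

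Type V collagen joins type I fibrils and limits their width. COL5A1 had 0.680 and 0.333 CPM in untreated A549, 1.04 and 1.10 with palbociclib, 9.33 and 9.25 with indisulam, 79.0 and 83.3 with the combination and 9.42 and 9.71 with PF-06873600. The combination was thus the highest A549 group and exceeded indisulam by a log2 difference of 3.13 ± 0.10 (adjusted p = 1.5e-11). Against untreated cells the combination gave 7.31 ± 0.16 (adjusted p = 5.4e-14), indisulam 4.18 ± 0.22 (adjusted p = 2.1e-09) and PF-06873600 4.22 ± 0.22 (adjusted p = 8.1e-10), while palbociclib at 1.07 ± 0.35 missed the threshold (adjusted p = 0.070) but passed it without untreated R1. In SUM159 COL5A1 went from 582 and 591 CPM to 1617 and 1727 CPM (1.51 ± 0.07, adjusted p = 6.4e-11).

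COL5A2 was the fibrillar gene with the most reads in untreated A549, at 96.7 and 91.8 CPM. It stayed at 98.4 and 93.7 CPM with palbociclib and reached 161 and 153 with indisulam, 241 and 252 with the combination and 131 and 133 with PF-06873600. The palbociclib libraries overlapped the untreated ones and the other groups did not. The log2 change was 0.73 ± 0.06 with indisulam (adjusted p = 2.2e-07), 1.39 ± 0.06 with the combination (adjusted p = 5.3e-11) and 0.49 ± 0.06 with PF-06873600 (adjusted p = 8.4e-06). In SUM159 it rose from 200 and 195 CPM to 491 and 498 CPM (1.32 ± 0.06, adjusted p = 2.9e-11). COL5A3 was low, between 0.204 and 1.70 CPM over the A549 libraries. It rose with indisulam (2.36 ± 0.51, adjusted p = 0.0017) and the combination (2.71 ± 0.48, adjusted p = 0.00019), and in SUM159 went from 2.89 and 2.94 to 17.4 and 19.6 CPM (2.66 ± 0.14, adjusted p = 3.7e-10).

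The remaining fibrillar genes moved less evenly. COL27A1, a fibrillar collagen known from cartilage, had 69.5 and 49.2 CPM in untreated A549, a wide gap between duplicates, and 109 and 87.7 CPM with indisulam (0.73 ± 0.13, adjusted p = 0.00054). It had 108 and 112 CPM with the combination (0.89 ± 0.13, adjusted p = 3.8e-05) and no call with palbociclib (55.3 and 66.8 CPM). With PF-06873600 it had 76.0 and 70.6 CPM (adjusted p = 0.073), a change that passed the threshold without untreated R1 and without the filter on low counts, and in SUM159 it went from 22.6 and 29.7 to 33.4 and 34.2 CPM (0.37 ± 0.10, adjusted p = 0.0043), a call lost without untreated SUM159 R1. COL11A2, a chain of cartilage type XI collagen, rose from 2.99 and 1.80 CPM to 7.95 and 6.34 with indisulam (1.57 ± 0.30, adjusted p = 0.00076) and to 11.2 and 12.7 with the combination (2.32 ± 0.28, adjusted p = 5.0e-06). It had 1.63 and 3.6 CPM with palbociclib and 2.07 and 1.05 CPM with PF-06873600, neither called, and rose in SUM159 from 0.844 and 1.32 to 4.62 and 5.20 CPM (2.19 ± 0.25, adjusted p = 1.8e-06). COL24A1 lay between 2.78 and 6.98 CPM in all A549 libraries and was lower with PF-06873600 (-0.57 ± 0.23, adjusted p = 0.044), a call lost under 7 alternatives, among them the omission of untreated R1 or of either PF-06873600 library. In SUM159 it rose from 0.724 and 0.313 to 2.92 and 2.79 CPM (2.43 ± 0.34, adjusted p = 1.3e-05).

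In the type IV class, the pair COL4A1 and COL4A2 rose under every treatment. These chains make the form of type IV collagen found in nearly all basement membranes. COL4A1 had 3.13 and 2.67 CPM in untreated A549, 4.6 and 5.31 with palbociclib, 18.7 and 16.5 with indisulam, 64.4 and 63.0 with the combination and 18.6 and 18.5 with PF-06873600. COL4A2 had 14.7 and 12.5 CPM untreated, 21.5 and 19.8 with palbociclib, 56.7 and 56.4 with indisulam, 153 and 172 with the combination and 67.6 in both libraries with PF-06873600. For both genes every treated library was above both untreated ones. The log2 change of COL4A1 was 0.78 ± 0.17 (adjusted p = 0.0057), 2.60 ± 0.14, 4.46 ± 0.12 and 2.68 ± 0.13 in that order, and that of COL4A2 was 0.60 ± 0.10 (adjusted p = 0.0013), 2.05 ± 0.09, 3.58 ± 0.09 and 2.31 ± 0.09. The palbociclib call of COL4A1 was lost without palbociclib R2 and with only the compared groups, and that of COL4A2 was kept under every alternative. In SUM159 COL4A1 went from 29.2 and 29.1 to 164 and 167 CPM (2.51 ± 0.06, adjusted p = 5.7e-14) and COL4A2 from 55.3 and 46.8 to 182 and 184 CPM (1.84 ± 0.07, adjusted p = 6.6e-12). In GENCODE the 2 genes overlap at their starts on opposite strands, and the strand setting of the counting was not given in the sources used here.

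COL4A3 and COL4A4, whose chains join with that of COL4A5 in the basement membranes of kidney and lung, went the other way under indisulam and PF-06873600 in A549. COL4A3 had 26.6 and 27.3 CPM in untreated A549, 19.6 and 26.5 with palbociclib, 19.1 and 14.3 with indisulam, 31.7 and 30.2 with the combination and 17.8 and 14.2 with PF-06873600. COL4A4 had 33.8 and 36.0 CPM untreated, 30.2 and 27.8 with palbociclib, 27 and 24.4 with indisulam, 44.9 and 48.7 with the combination and 26.2 and 23.9 with PF-06873600. The lowest levels of both were thus with indisulam and PF-06873600, and the highest with the combination. With indisulam COL4A3 fell by 0.69 on the log2 scale (SE 0.15, adjusted p = 0.0019) and COL4A4 fell by 0.44 (SE 0.09, adjusted p = 0.0011), and with PF-06873600 they fell by 0.77 (SE 0.15, adjusted p = 0.00065) and by 0.48 (SE 0.09, adjusted p = 0.0004). With the combination COL4A4 rose by 0.42 ± 0.09 (adjusted p = 0.00053) and COL4A3 at 0.20 ± 0.14 was not called (adjusted p = 0.23). In SUM159 both were low and rose with PF-06873600, COL4A3 from 0.362 and 1.25 to 3.39 and 2.70 CPM (1.91 ± 0.37, adjusted p = 0.00028) and COL4A4 from 2.71 and 3.19 to 12.4 and 13.3 CPM (2.12 ± 0.16, adjusted p = 1.1e-08).

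COL4A5 and COL4A6 did not move as a pair. COL4A5 had 37.5 and 35.0 CPM in untreated A549, 34.8 and 37.3 with palbociclib, 52.0 and 43.5 with indisulam, 53.3 and 51.7 with the combination and 42.7 and 42.6 with PF-06873600. It rose with indisulam (0.40 ± 0.09, adjusted p = 0.0021) and the combination (0.53 ± 0.09, adjusted p = 8.4e-05), and its call with PF-06873600 (0.23 ± 0.09, adjusted p = 0.036) was lost under 7 alternatives, among them the omission of untreated R2 or of either PF-06873600 library. COL4A6 stayed between 5.01 and 8.09 CPM over the 10 A549 libraries and was called in none of the A549 comparisons. In SUM159 COL4A5 went from 119 and 136 to 291 and 306 CPM (1.23 ± 0.07, adjusted p = 3.1e-10), while COL4A6 was at 172 and 173 CPM untreated and 170 and 177 CPM with PF-06873600, a log2 difference of 0.01 ± 0.05 (adjusted p = 0.91).

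**Figure D4:**
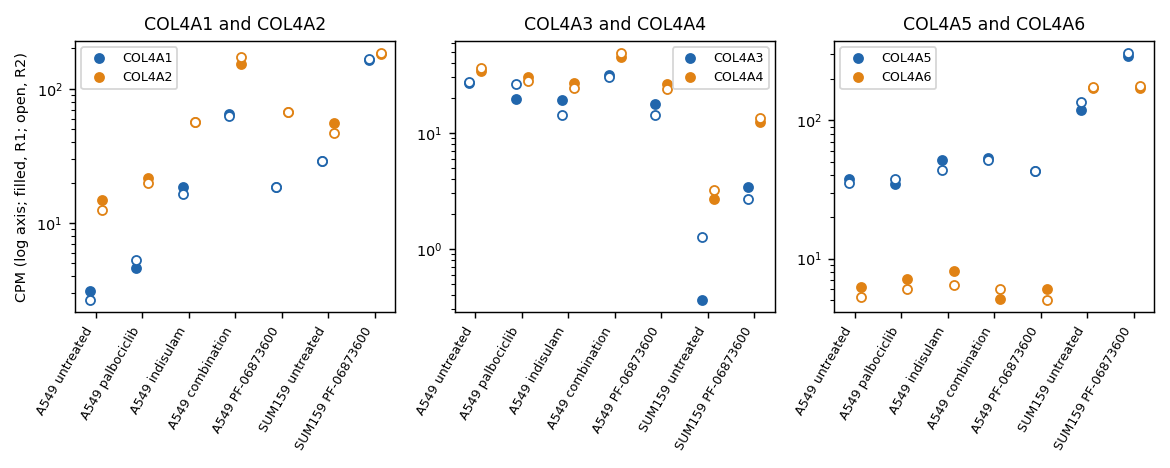
CPM (log axis) of the 6 type IV genes, drawn by pair, in each library (filled, R1; open, R2). COL4A1 and COL4A2 climb together from untreated to combination-treated A549, COL4A3 and COL4A4 dip with indisulam and PF-06873600, and COL4A6 stays level within each line while COL4A5 does not.

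Type VI collagen is built from an alpha1, an alpha2 and an alpha3 chain, encoded by COL6A1, COL6A2 and COL6A3. COL6A1 had 25.2 and 19.1 CPM in untreated A549, 26.8 and 29.3 with palbociclib, 50.5 and 48.4 with indisulam, 103 in both combination libraries and 48.5 and 51.6 with PF-06873600. It rose with indisulam (1.16 ± 0.10, adjusted p = 5.8e-07), the combination (2.22 ± 0.10, adjusted p = 8.7e-11) and PF-06873600 (1.18 ± 0.10, adjusted p = 2.4e-07). Its palbociclib call (0.35 ± 0.11, adjusted p = 0.045) was lost under 11 of 17 alternatives, among them the omission of untreated R2 or of either palbociclib library. COL6A2 rose from 0.272 and 0.200 CPM to 1.87 and 1.98 with indisulam (2.99 ± 0.46), 10.6 and 11.6 with the combination (5.51 ± 0.33, adjusted p = 2.1e-09) and 1.45 and 1.61 with PF-06873600 (2.66 ± 0.48, adjusted p = 0.00029). COL6A3 did not rise in A549. It stood at 1.36 and 0.867 CPM untreated and 0.638 and 0.515 CPM with the combination (-0.94 ± 0.40, adjusted p = 0.05), just short of a call, which it reached with TMM scaling, with the replicate block and without untreated R2. In SUM159 all 3 chains rose with PF-06873600. COL6A1 went from 390 and 377 to 1379 and 1462 CPM (1.89 ± 0.07), COL6A2 from 353 and 323 to 1147 and 1282 CPM (1.85 ± 0.08) and COL6A3 from 2579 and 3182 to 3984 and 4117 CPM (0.49 ± 0.10, adjusted p = 0.00033).

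COL7A1, whose homotrimers form the anchoring fibrils below the epidermis, had 71.0 and 38.0 CPM in untreated A549, 56.1 and 89.2 with palbociclib, 287 and 196 with indisulam, 489 and 493 with the combination and 244 and 228 with PF-06873600. Its duplicates differed more than those of any other collagen with at least 5 CPM in the untreated, palbociclib and indisulam groups of A549 and in untreated SUM159. The palbociclib and untreated libraries overlapped, and the other groups lay above both. The log2 change was 2.15 ± 0.24 (adjusted p = 5.1e-06) with indisulam, 3.17 ± 0.24 (adjusted p = 3.0e-08) with the combination and 2.12 ± 0.24 (adjusted p = 3.1e-06) with PF-06873600, and at 0.42 ± 0.25 palbociclib gave no call, though it did without untreated R1 and without the filter on low counts. In SUM159 COL7A1 rose from 166 and 269 to 574 and 633 CPM (1.48 ± 0.14, adjusted p = 2.7e-07).

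Of the short-chain collagens, which form open networks in matrices such as those of the cornea and growth plate, COL8A1 marked the line and not the A549 treatments. It was at most 0.536 CPM in any A549 library, and in SUM159 went from 521 and 494 to 1970 and 2013 CPM (1.97 ± 0.07, adjusted p = 4.6e-12). COL8A2 had 2 and 1 counts in the untreated SUM159 libraries (0.121 and 0.0626 CPM) and 1.75 and 2.55 CPM with PF-06873600, a ratio of summed counts of 23.8 with a counting interval of 7.88 to 118. COL8A2 could pass the SUM159 filter only through the treated group, so its call there is not separate from the filter.

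FACITs sit on the surface of fibrils. COL12A1, the FACIT with the most reads in both lines, had 16.6 and 17.3 CPM in untreated A549, 22.8 and 19.9 with palbociclib, 41.5 and 43.5 with indisulam, 95.9 and 93.5 with the combination and 28.9 and 30.2 with PF-06873600. No treated group overlapped the untreated one. The log2 change was 1.33 ± 0.09 (adjusted p = 2.0e-08), 2.48 ± 0.08 (adjusted p = 3.2e-12) and 0.81 ± 0.09 (adjusted p = 2.6e-06) in the last 3 groups, and the palbociclib call (0.33 ± 0.09, adjusted p = 0.026) was lost without untreated R1, without palbociclib R1, with only the compared groups and with DESeq2. COL16A1 rose from 2.99 and 2.47 to 7.46 and 5.42 CPM with indisulam (1.23 ± 0.20) and to 12.6 and 14.2 CPM with the combination (2.30 ± 0.18, adjusted p = 4.9e-08). Its PF-06873600 call (4.21 and 3.77 CPM, 0.54 ± 0.22, adjusted p = 0.048) was lost under 11 alternatives, among them the omission of untreated R2. In SUM159 COL12A1 went from 169 and 215 to 278 and 281 CPM (0.54 ± 0.08, adjusted p = 3.2e-05) and COL16A1 from 126 and 156 to 224 and 236 CPM (0.71 ± 0.08, adjusted p = 1.0e-06).

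Several FACIT genes of low level changed by larger factors. COL21A1 rose from 0.884 and 1.07 CPM to 6.43 and 5.55 with indisulam (2.61 ± 0.25, adjusted p = 1.1e-06) and 5.46 and 6.18 with the combination (2.57 ± 0.25, adjusted p = 4.5e-07), so that adding palbociclib to indisulam left it within the spread (-0.04 ± 0.18, adjusted p = 0.88). It also rose with PF-06873600 in A549 (2.30 and 3.09 CPM, 1.47 ± 0.29) and in SUM159 (0.784 and 0.814 to 2.98 and 3.88 CPM, 2.11 ± 0.29). COL20A1 had 2 and 0 counts in the untreated A549 libraries, 1.52 and 0.925 CPM with indisulam and 1.77 and 2.00 CPM with the combination. COL22A1, known at muscle and tendon junctions, had 1 count in each untreated A549 library and 0 and 1 with palbociclib. It reached 0.553 and 0.396 CPM with indisulam and 7.73 and 8.30 CPM with the combination, a ratio to untreated counts of 119 with a counting interval of 32.7 to 991. The indisulam call of COL22A1 was lost without untreated R2, without indisulam R1 and with DESeq2. COL22A1 was too low to pass the filter through its untreated, palbociclib or indisulam libraries, so its combination calls are not separate from the filter. The same limit holds for the higher calls of COL20A1, whose untreated libraries were too low to pass.

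COL14A1, a FACIT that binds decorin, was the collagen called lower with the combination. It had 1.43 and 1.27 CPM in untreated A549, 0.519 and 0.793 with palbociclib, 1.04 and 1.52 with indisulam and 0.355 and 0.129 with the combination (-2.47 ± 0.52, adjusted p = 0.00072), and 1.15 and 0.680 with PF-06873600. In SUM159 it had 1 count in each untreated library and 1.99 and 1.70 CPM with PF-06873600, a ratio of counts of 29.8 with a counting interval of 7.94 to 251. Its SUM159 call is not separate from the filter, which it could pass there only through the treated group. COL9A2, a chain of cartilage type IX collagen, rose in SUM159 from 0.784 and 0.877 to 5.61 and 6.57 CPM (2.87 ± 0.25, adjusted p = 6.3e-08). The call of COL9A3 there (1.09 and 0.939 to 1.87 and 1.61 CPM, 0.77 ± 0.30, adjusted p = 0.031) was lost when any 1 of the 4 SUM159 libraries was left out and with DESeq2.

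The transmembrane collagen COL17A1 is a component of hemidesmosomes, by which basal epithelial cells hold to the basement membrane. It had 0.952 and 1.33 CPM in untreated A549, 1.41 and 1.16 with palbociclib, 12 and 12.6 with indisulam, 50.4 and 49.9 with the combination and 13.2 and 12.5 with PF-06873600. Palbociclib overlapped untreated (0.15 ± 0.27, adjusted p = 0.82), and the other 3 groups rose by 3.42 ± 0.17 (adjusted p = 1.5e-09), 5.44 ± 0.14 (adjusted p = 3.3e-13) and 3.48 ± 0.17 (adjusted p = 5.2e-10). In SUM159 it had 13.4 and 14.9 CPM untreated and 15.4 and 14.6 CPM with PF-06873600, a log2 difference of 0.08 ± 0.11 (adjusted p = 0.50). COL13A1, another transmembrane collagen, had no read in untreated or palbociclib-treated A549, 0.691 and 0.991 CPM with indisulam, 0.709 and 0.129 with the combination and 0.613 and 0.618 with PF-06873600. Set against a floor of 3 counts per library, the indisulam group was at least 4.17-fold higher and the PF-06873600 group at least 3.05-fold higher, and the combination call was lost without combination R1. With no untreated read, COL13A1 could pass the A549 filter only through treated groups, so its higher calls there are not separate from the filter. In SUM159 COL13A1 went from 5.61 and 5.07 to 8.48 and 10.9 CPM (0.87 ± 0.16, adjusted p = 0.00019).

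COL18A1, the multiplexin of basement membranes that carries endostatin at its end, was among the leading collagens of A549. It had 109 and 74.9 CPM untreated, 127 and 121 with palbociclib, 268 and 251 with indisulam, 473 and 471 with the combination and 210 and 218 with PF-06873600. The untreated duplicates were apart, yet all treated libraries lay above both. The log2 change was 1.49 ± 0.12 (adjusted p = 1.2e-07) with indisulam, 2.36 ± 0.12 (adjusted p = 2.4e-10) with the combination and 1.22 ± 0.12 (adjusted p = 5.1e-07) with PF-06873600, and the palbociclib call (0.43 ± 0.12, adjusted p = 0.022) was lost under 5 alternatives, among them the omission of untreated R2 or of either palbociclib library. In SUM159 it rose from 68.9 and 69.96 to 157 and 178 CPM (1.27 ± 0.06, adjusted p = 1.7e-10). COL18A1 overlaps antisense genes and SLC19A1 on the other strand. COL28A1, in no class here, rose from 0.544 and 0.267 CPM to 5.60 and 4.63 with indisulam (3.63 ± 0.33), 8.93 and 10.9 with the combination (4.59 ± 0.29, adjusted p = 4.2e-09) and 1.45 and 1.05 with PF-06873600 (1.59 ± 0.44, adjusted p = 0.0062, lost without untreated R2). In SUM159 it rose from 3.80 and 3.95 to 24.1 and 25.8 CPM (2.69 ± 0.12, adjusted p = 5.9e-11).

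The question that the combination raises is whether the response to both drugs differed from the sum of the responses to each. Both combination libraries lay above all 8 other A549 libraries for 18 of the 27 collagens tested, where 22.1% of all genes did so, and below them for 1 (COL14A1), where 16.4% of all genes did so. The 8 include the 2 PF-06873600 libraries, collected after a shorter treatment, so these ranks are a description. Against palbociclib alone 23 were called higher and 1 lower (33.5% and 26.9% of all genes, 60.4% in either direction), and against indisulam alone 17 higher and 1 lower (22% and 23.9%). The interaction on the log2 scale, that is the change with both drugs minus the changes with each alone, was called above 0 for 12 of 27 and below 0 for 0 (10.7% and 14.5% of all genes). At an unadjusted p under 0.05, 1 was below 0, and DESeq2 called 0 below it. The 12 included the pairs COL4A1 (1.08 ± 0.20, adjusted p = 0.001) with COL4A2 (0.93 ± 0.13, adjusted p = 0.00011) and COL4A3 (1.11 ± 0.21, adjusted p = 0.0013) with COL4A4 (1.14 ± 0.13, adjusted p = 1.2e-05).

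Among the fibrillar genes the interaction was called for COL5A1 (2.05 ± 0.42, adjusted p = 0.0023, lost without untreated R1), COL1A1 (0.89 ± 0.22, adjusted p = 0.0097) and COL5A2 (0.62 ± 0.08, adjusted p = 7.7e-05). It was also called for COL17A1 (1.87 ± 0.30, adjusted p = 0.00034), COL16A1 (1.16 ± 0.29, adjusted p = 0.0083), COL12A1 (0.83 ± 0.12, adjusted p = 0.00013) and COL6A1 (0.71 ± 0.14, adjusted p = 0.002). The call of COL22A1 (adjusted p = 0.039) rested on 1 count in each untreated library and was lost under 7 of its alternatives, each of them the omission of a single library. This call, too, is not separate from the filter. COL7A1 (0.60 ± 0.33, adjusted p = 0.21) and COL18A1 (0.43 ± 0.16, adjusted p = 0.06), the most abundant collagens of the combination group, were not called. Both passed the threshold without untreated R2 and without the filter on low counts, and COL18A1 also with the replicate block. PF-06873600 was given for 7 days and the other drugs for 10, and its dose differed from that of palbociclib, so its values in A549 stand beside those of the combination with no test between them.

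Between the untreated lines, 22 of 33 collagens were called higher in SUM159 and 7 lower, where 41.9% and 36.8% of all 17279 genes were (78.7% in either direction). The widest gaps were in genes of connective tissue. COL6A3 differed by 11.33 ± 0.15 on the log2 scale (adjusted p = 1.3e-21), COL8A1 by 11.24 ± 0.20, COL6A2 by 10.44 ± 0.17, COL5A1 by 10.16 ± 0.12 and COL1A1 by 9.74 ± 0.10 (adjusted p = 1.5e-22). COL1A2 and COL3A1 had no read in untreated A549 and were at least 67.3-fold and 60.3-fold higher in SUM159 when set against a floor of 3 counts per library. COL4A6 differed by 4.90 ± 0.10 (adjusted p = 9.6e-19), more than the other type IV genes called higher in SUM159. The 7 genes called lower in SUM159 were COL4A3 (-5.06 ± 0.28), COL4A4 (-3.56 ± 0.13), COL24A1 (-3.05 ± 0.33), COL27A1 (-1.18 ± 0.15), COL11A2 (-1.15 ± 0.40, adjusted p = 0.015), COL18A1 (-0.41 ± 0.11, adjusted p = 0.0029) and COL14A1, whose ratio of counts was 21.9 with a counting interval of 5.68 to 187. COL18A1 lost its call without untreated A549 R1, and COL11A2 lost it without either R1 library of untreated cells.

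PF-06873600 was given to both lines at the same dose and for the same time, and the difference of the responses was tested directly. Of 33 collagens, 8 (24.2%) were called with a larger log2 response in SUM159 and 5 (15.2%) with a larger one in A549. The shares of all genes were 25.8% and 27.2%, so neither collagen share was above that of all genes. COL4A3 and COL4A4 fell in A549 and rose in SUM159, with a difference of 2.67 ± 0.43 (adjusted p = 3.0e-05) and 2.61 ± 0.17 (adjusted p = 1.7e-10). COL17A1 rose in A549 and was level in SUM159, a difference of -3.39 ± 0.21 (adjusted p = 9.1e-11), and COL5A1 and COL1A1 rose more in A549, from far lower levels, by -2.71 ± 0.24 and -1.25 ± 0.17. COL5A2 (0.84 ± 0.08), COL4A5 (1.00 ± 0.12) and COL6A1 (0.71 ± 0.12) rose more in SUM159. For COL4A1 the responses of the lines were not told apart, at -0.17 ± 0.15 (adjusted p = 0.42).

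Collagen chains are modified, folded, trimmed and cross-linked by other proteins, of which 55 in 8 lists were examined beside the collagens. These lists were chosen with earlier results of these data known. In A549 48 of the 55 genes passed the filter, and in SUM159 53. As with the collagens, a low gene can pass through the group in which it is high. Called higher and lower were 14 and 5 with palbociclib, 22 and 11 with indisulam, 30 and 11 with the combination, 19 and 12 with PF-06873600 in A549, and 46 and 2 with PF-06873600 in SUM159. The shares of all genes called higher and lower were 8.3% and 7.4%, 28% and 17.5%, 35.1% and 30%, 28.5% and 27.8%, and 38.1% and 35.6% in the same order. The counts of genes called lower with the combination and with PF-06873600 in A549 were thus near or below these shares.

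The cross-linking enzymes, which join collagen chains covalently after secretion, had 5 of 5 tested called higher with the combination in A549, where 35.1% of all genes were. LOXL2, a lysyl oxidase, had 14.3 and 12.1 CPM untreated, 24.2 and 22.2 with palbociclib, 65.1 in both indisulam libraries, 201 and 210 with the combination and 115 and 124 with PF-06873600, so that no treated group overlapped the untreated one. Its log2 change with the combination was 3.96 ± 0.09 (adjusted p = 5.4e-14). PXDN, the peroxidase that links type IV collagen, went from 28.1 and 24.5 CPM to 74.3 and 64.7 with palbociclib (1.40 ± 0.08), 98.3 and 97.9 with indisulam (1.90 ± 0.08), 182 and 180 with the combination (2.79 ± 0.08, adjusted p = 1.0e-12) and 99.1 and 104 with PF-06873600 (1.95 ± 0.08). In SUM159 LOX rose from 19.1 and 18.1 to 174 and 168 CPM (3.20 ± 0.07, adjusted p = 1.2e-14), LOXL1 from 10.8 and 11 to 106 and 115 CPM (3.34 ± 0.08) and LOXL4 from 0.603 and 0.626 to 21.9 and 23.6 CPM (5.20 ± 0.18), while LOXL3 was called lower.

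Among the prolyl hydroxylation genes, whose products stabilise the triple helix, PF-06873600 gave 2 of 10 called higher and 4 lower in A549 (28.5% and 27.8% of all genes) and 9 of 10 higher and none lower in SUM159 (38.1% and 35.6%). The difference of these responses was called larger in SUM159 for 8 of 10 and larger in A549 for none (25.8% and 27.2% of all genes). With the combination in A549 4 of 10 were called higher, near the 35.1% of all genes, and 5 lower (30% of all genes). P4HA3, an alpha subunit of prolyl 4-hydroxylase, went from 7.54 and 7.33 CPM in untreated A549 to 61.5 and 61.9 with the combination (3.05 ± 0.09, adjusted p = 1.2e-12). P4HA2, another alpha subunit, went from 38.8 and 36.8 to 140 and 143 CPM there (1.90 ± 0.07), and in SUM159 from 69.8 and 67.9 to 597 and 594 CPM (3.11 ± 0.06, adjusted p = 9.5e-15). The genes called lower with the combination were P3H1, CRTAP, PPIB, P3H4 and P4HB. Of the lysyl hydroxylation and glycosylation list, 5 of 7 were called higher and 1 lower with the combination (35.1% and 30% of all genes), and 6 higher and 1 lower in SUM159 (38.1% and 35.6%). PLOD2, which hydroxylates telopeptide lysines, went from 170 and 187 to 670 and 701 CPM with the combination (1.94 ± 0.06, adjusted p = 3.7e-12).

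CREB3L1, a membrane-bound transcription factor known to drive COL1A1 and COL1A2, was examined in the chaperone and export list. It had 70.6 and 58.7 CPM in untreated A549, 25.9 and 26.2 with palbociclib, 25.4 and 25.0 with indisulam, 9.57 and 10.7 with the combination and 3.14 and 3.52 with PF-06873600. All treated groups lay below the untreated one, with log2 changes of -1.31 ± 0.09, -1.36 ± 0.09, -2.67 ± 0.11 and -4.27 ± 0.13 (adjusted p = 3.7e-12 for the last). In SUM159 it went from 171 and 162 to 246 and 232 CPM and was called higher. The whole list of 5 had 2 called higher and 3 lower with the combination (35.1% and 30% of all genes), none higher and 4 lower with PF-06873600 in A549 (28.5% and 27.8%) and 3 higher and none lower in SUM159 (38.1% and 35.6%).

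BMP1, the protease that cuts the C-propeptide of fibrillar procollagens, rose from 68.2 and 58.3 CPM to 285 and 275 with the combination (2.15 ± 0.09, adjusted p = 2.7e-11) and to 160 and 161 with PF-06873600 (1.34 ± 0.09). Of 6 propeptide genes tested, 4 were called higher and none lower with the combination (35.1% and 30% of all genes), and of 7 in SUM159 5 higher and none lower (38.1% and 35.6%). In the receptor list, ITGA11, the alpha subunit of a receptor for fibrillar collagen, had 5.64 and 5.47 CPM in untreated A549, 3.71 and 3.84 with palbociclib, 6.77 and 7.86 with indisulam, 93.0 and 95.0 with the combination and 3.29 and 4.27 with PF-06873600. The combination libraries lay above all other A549 libraries, with a log2 change of 4.08 ± 0.11 against untreated (adjusted p = 2.8e-13), 4.63 ± 0.11 against palbociclib and 3.68 ± 0.10 against indisulam, and in SUM159 it rose from 12.7 and 13.3 to 136 and 138 CPM (3.39 ± 0.07, adjusted p = 1.1e-14). All 7 receptor genes were called higher in SUM159, where 38.1% of all genes were. With the combination in A549 3 were called higher, near the 35.1% of all genes, and 1 lower (30%).

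Of the genes of collagen breakdown and uptake, 5 of 5 tested were called higher in the combination group (35.1% of all genes) and 6 of 6 in SUM159 (38.1%). The gelatinase MMP2 went from 130 and 123 to 357 and 355 CPM with the combination (1.49 ± 0.05, adjusted p = 1.0e-11), and in SUM159 the membrane protease MMP14 from 38.3 and 35.5 to 314 CPM in both libraries (3.09 ± 0.06) and the collagen uptake receptor MRC2 from 108 and 107 to 524 and 548 CPM (2.31 ± 0.06). Of the fibril-associated proteins, all 5 were called higher in SUM159 (38.1% of all genes). DCN, the small proteoglycan decorin, went there from 81.4 and 78.3 to 834 and 869 CPM (3.41 ± 0.07, adjusted p = 8.3e-15) and SPARC, a collagen-binding glycoprotein, from 629 and 571 to 2576 and 2536 CPM (2.09 ± 0.08). With the combination in A549, 2 of the 3 tested were called higher and 1 lower (35.1% and 30% of all genes). SPARC went from 0.408 and 0.267 to 10.8 and 8.43 CPM (4.80 ± 0.45, adjusted p = 3.2e-07). LUM, the proteoglycan lumican, had a single read over both untreated libraries and reached 9.71 and 8.17 CPM with the combination. It had at most 7 counts in any other A549 library. LUM could thus pass the filter only through the combination group, and its call there is not separate from the filter. FMOD, the proteoglycan fibromodulin, fell from 70.7 and 69.5 to 29.5 and 29.2 CPM with the combination (-1.26 ± 0.08, adjusted p = 2.9e-09).

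**Figure D5:**
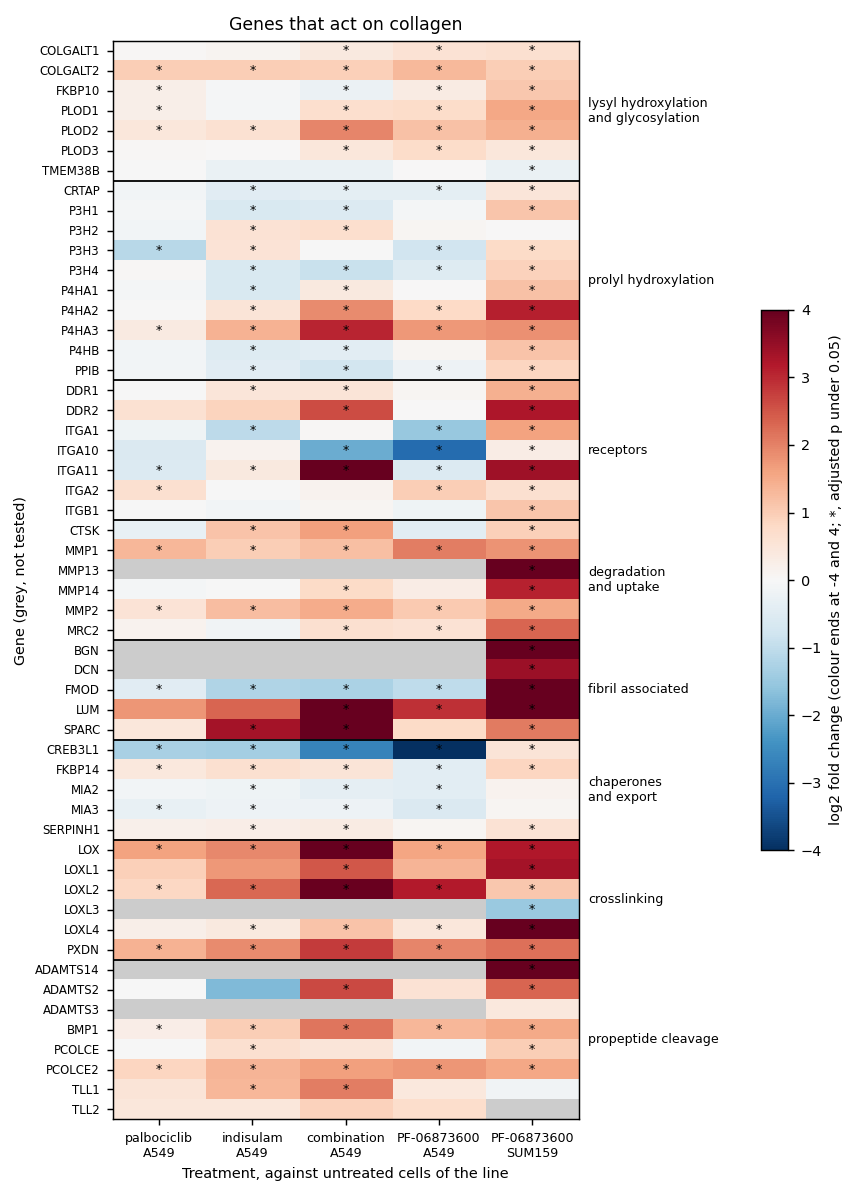
Fitted log2 fold change against untreated cells of the same line for genes of the 8 lists of collagen-acting proteins (rows) under 5 treatments (columns); red is higher, blue lower, grey not tested, an asterisk marks an adjusted p under 0.05, and colours end at -4 and 4. The SUM159 column is red in all but a few rows, while CREB3L1, FMOD and part of the prolyl hydroxylation list are blue in the A549 columns.

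Of the 44 collagens, 10 were never tested because their counts were too low in all 3 fits. Of these, 8 had no more than 3 counts in any library (COL2A1, COL6A5, COL6A6, COL9A1, COL10A1, COL19A1, COL25A1 and COL26A1). The other two were COL11A1, at most 0.236 CPM, and COL23A1, at most 1.05 CPM in a treated SUM159 library. COL15A1, the second multiplexin, was tested in SUM159 and rose from 0.241 and 0.125 to 0.643 and 1.23 CPM (2.34 ± 0.55, adjusted p = 0.0014). It could pass the filter there only through the treated group, so its call is not separate from the filter. At this depth a level under about 3 counts, 0.142 to 0.23 CPM, could not be told from 0.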

How the data were processed

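Per the labels and the study's methods, the authors prepared stranded poly(A) libraries, sequenced single 65-base reads and mapped them to hg38, and the submitters' processing notes name HISAT2 2.2.1, HTSeq and GRCh38. The annotation release and the strand setting were not given in the sources used here. The deposited values are raw read counts per gene, 1 table per library, and the summary lines that name no gene were left out. Symbols, exon lengths and overlaps were taken from GENCODE 44 and promoter windows from RefSeq (GRCh38.p14).

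CPM was computed from the total on genes, with exon length as the union of exons. Groups followed the labels, with 2 libraries each. edgeR 4.0.16 (R 4.3.3) was used with filterByExpr, total-count library sizes, the quasi-likelihood F test (two-sided) and Benjamini-Hochberg adjustment over all genes. The fits held 10 A549 libraries, 4 SUM159 libraries, or all 14 for comparisons between lines. The script was tested on simulated counts. Intervals and floors cover counting error only.

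Collagens reaching 5 CPM as the mean of any group, or called with an absolute log2 change of at least 1 and at least 1 CPM, were named (33). Genes acting on collagen were named when called with an absolute log2 change of at least 1 and at least 20 CPM, at most 3 per list and direction. Genes named outside this rule, among them LOXL3, LUM, COL11A1, COL15A1, COL23A1 and the prolyl hydroxylation genes called lower, were chosen after their values were seen. The members and lists were chosen with earlier results of these data known. TMM scaling, DESeq2 1.42.0, other filters, fewer libraries and a replicate block were tried.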

Additional observations from a re-analysis of the deposited data

Results flagged for a closer look

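The response to PF-06873600 differed between SUM159 and A549 for 13 of the 33 collagens tested, by the interaction term of the edgeR fit over all 14 libraries (adjusted p under 0.05). This is a smaller share than the 53% of all 17279 genes that passed, so such a difference was not particular to collagens. Values are the log2 response in SUM159 minus that in A549. It was larger in SUM159 for COL14A1 (5.32), COL24A1 (3.0), COL11A2 (2.85), COL4A3 (2.67), COL4A4 (2.61), COL4A5 (1.00), COL5A2 (0.84) and COL6A1 (0.71). It was larger in A549 for COL13A1 (-5.42), COL17A1 (-3.39), COL5A1 (-2.71), COL1A1 (-1.25) and COL4A2 (-0.47). COL13A1 had no read in untreated A549 and COL14A1 1 count in each untreated SUM159 library, so the sizes of these 2 fitted differences depend on how the fit treats low counts. COL24A1, COL4A3 and COL4A4 were called lower in A549 and higher in SUM159, though the A549 call of COL24A1 (adjusted p = 0.044) was lost under 7 alternatives, among them the omission of untreated R1 or of either PF-06873600 library. Samples far from the rest of their group were not looked for, since each group had 2 libraries.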

How the results depend on the processing

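The palbociclib results were the least stable. The count of 6 collagens higher became 2 when only the compared groups were fitted and ranged from 2 to 7 when single libraries were left out, with 2 without palbociclib R2 and 3 without palbociclib R1, and the count of 0 lower became 1 with a mean of at least 50 counts, 1 under the crossed block and 0 to 1 with libraries left out (1 without untreated R1). The lower counts of 1 in the combination comparisons moved as follows. Against untreated it was 2 with TMM, 0 with at least 50 counts, 2 with the replicate block and 1 to 2 with libraries left out (2 without untreated R2). Against palbociclib it was 0 with at least 50 counts, with only the compared groups, with the replicate block and with DESeq2, and 0 to 1 with libraries left out. Against indisulam it was 0 with at least 50 counts and 1 to 2 with libraries left out (2 without combination R1). The cause of these moves was not tested, except that the filter of 50 counts removed genes. All other counts of calls stayed within 1.5 times the reported one under every alternative. TMM moved the summed CPM by more than the SD of the duplicates for fibrillar genes in A549 with PF-06873600 (237.0) and untreated SUM159 (2370), for type IV genes in A549 untreated (123), with palbociclib (124) and with PF-06873600 (181) and in untreated SUM159 (365), and for other collagens in A549 with the combination (1247) and PF-06873600 (576). The line difference in the response of COL18A1 was 0.05 and became -0.24 without untreated A549 R1 and 0.30 without untreated A549 R2. TMM moved the median of all genes by -0.11 for untreated SUM159 against untreated A549, and 61.6% of the genes called with indisulam were higher under total counts, and 50.4% under TMM. The numbers R1 and R2 gave no consistent pairing of the libraries: correlations of the R1 minus R2 differences over 12214 genes lay between -0.262 (palbociclib with untreated A549) and 0.258 (indisulam with untreated A549). Differences between duplicates were thus partly shared by some groups, with either sign. Their chi-square per degree of freedom was 9.57 in untreated A549, 9.05 in untreated SUM159 and 1.61 to 5.04 in the other groups, above the 1 of counting error alone. Crossing the numbers, a choice made after seeing these values, was tried for palbociclib and for the untreated lines. Depth limited genes near 3 counts, and technical duplicates cannot show the spread between cultures.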
